A study of Mus musculus with 21 samples.

Results

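The 34 genes described here are type I interferon-stimulated genes (ISGs), chosen by symbol from a list of genes known to be induced by interferon-alpha and interferon-beta. All 34 were found among the 55487 gene identifiers of the deposited count table, and all 34 passed the filter on low counts that left 19061 genes for testing. The list was named by symbol and not by a measured value of any comparison, although it was drawn up when earlier results of these data were known. RNA came from tumours of Hepa1-6, a mouse hepatoma cell line, in C57BL/6 mice, and the stated purpose was to study B cells in the response of hepatocellular carcinoma to anti-PD1 with anti-CTLA4, antibodies that block inhibitory receptors of T cells. The WT isotype group (5 libraries) had genotype WT and isotype antibody. The WT combination group (5 libraries) had genotype WT and anti-PD1 plus anti-CTLA4. The B-depleted isotype group (6 libraries) had B-cell depletion and isotype antibody, and the B-depleted combination group (5 libraries) had B-cell depletion and both blocking antibodies. All 4 groups shared the cell line and the mouse strain, so the tumours descend from 1 line. How B cells were depleted, the age of the mice, the doses and the day of sampling are not given in the labels. The labels also do not say whether each library is a separate animal, so p-values here measure the spread between these samples, which may be partly technical.

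Type I interferons are secreted after cells sense foreign or misplaced nucleic acid, and they bind a receptor of the subunits IFNAR1 and IFNAR2 on nearly every nucleated cell. The receptor kinases JAK1 and TYK2 phosphorylate STAT proteins, and STAT2 joins IRF9 in the factor ISGF3. ISGF3 binds the interferon-stimulated response element (ISRE) in front of genes such as those below, whose products sense viral RNA, stop translation, degrade RNA or tag proteins with ISG15. Interferon-gamma, the type II interferon of T cells and natural killer cells, uses another receptor, and it raises many of the same genes to some degree.

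In WT tumours most members were higher under the antibody combination. In B-depleted tumours no member passed the test, as was the case for nearly all genes. The test of the difference between the 2 responses called 0 members. With the combination, 26 of 34 members rose in WT (76.5%) and 0 fell, beside 25.0% of all tested genes called higher and 25.0% called lower in that comparison (edgeR quasi-likelihood test, threshold 0.05 on p adjusted by Benjamini-Hochberg across the 19061 genes). The median log2 fold change of the 34 was 0.70, with a range from -0.39 to 1.22, beside 0.00 over all genes. For 20 of the 34, every WT combination library lay above every WT isotype library, as it did for 15.0% of all genes. In B-depleted tumours the combination raised 0 members and lowered 0, beside 0.304% and 0.0367% of all genes, with a median log2 fold change of 0.12 and a range from -0.29 to 0.42. Of these 34, 1 had an unadjusted p under 0.05, and DESeq2 also called 0.

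Between backgrounds under isotype antibody, 0 members were called in either direction by edgeR or DESeq2 and 0 had an unadjusted p under 0.05, beside 0% of all genes called higher and 0% called lower. Under the combination, 20 of 34 members (58.8%) were lower in B-depleted than in WT tumours and 0 were higher, beside 13.5% of all genes called lower and 15.5% called higher. The median log2 fold change of the 34 was -0.60, and for 23 of them every B-depleted combination library lay below every WT combination library, as for 6.03% of all genes. Leaving out 1 library at a time, Ifit1, Oas1a, Trim30a and Herc6 were called in all 21 refits, and each of the other 16 in 10 to 20 of them, with a highest adjusted p from 0.0516 (Dtx3l) to 0.0976 (Ifih1). The number called fell most without WT combination replicate 4 (7 members, beside 4.74% of all genes called lower) or 5 (7 members, 5.04%) and without B-depleted combination replicate 2 (11 members, 8.5%) or 3 (12 members, 6.28%). With no filter on low counts 10 members were called, beside 3.57% of 39551 genes. The WT combination libraries enter both this comparison and the response in WT, so the 2 sets of values are not independent of each other. The test of the difference between the 2 antibody responses called 0 members, beside 0.0157% of all genes higher and 0.0105% lower in that test. Its estimate was below 0 for 31 of 34 members with a median of -0.56, 16 members had an unadjusted p under 0.05, and the smallest adjusted p was 0.0761, of Rsad2. DESeq2 called 2 members in that test, beside 4.85% of all genes higher and 2.5% lower. In alternatives chosen after seeing the data, edgeR called 10 members without WT isotype replicates 1 and 2, beside 6.23% of all genes higher and 3.91% lower. It called 14 when B-depleted combination replicate 5 was left out too, beside 12.5% higher and 8.89% lower.

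**Figure D1:**
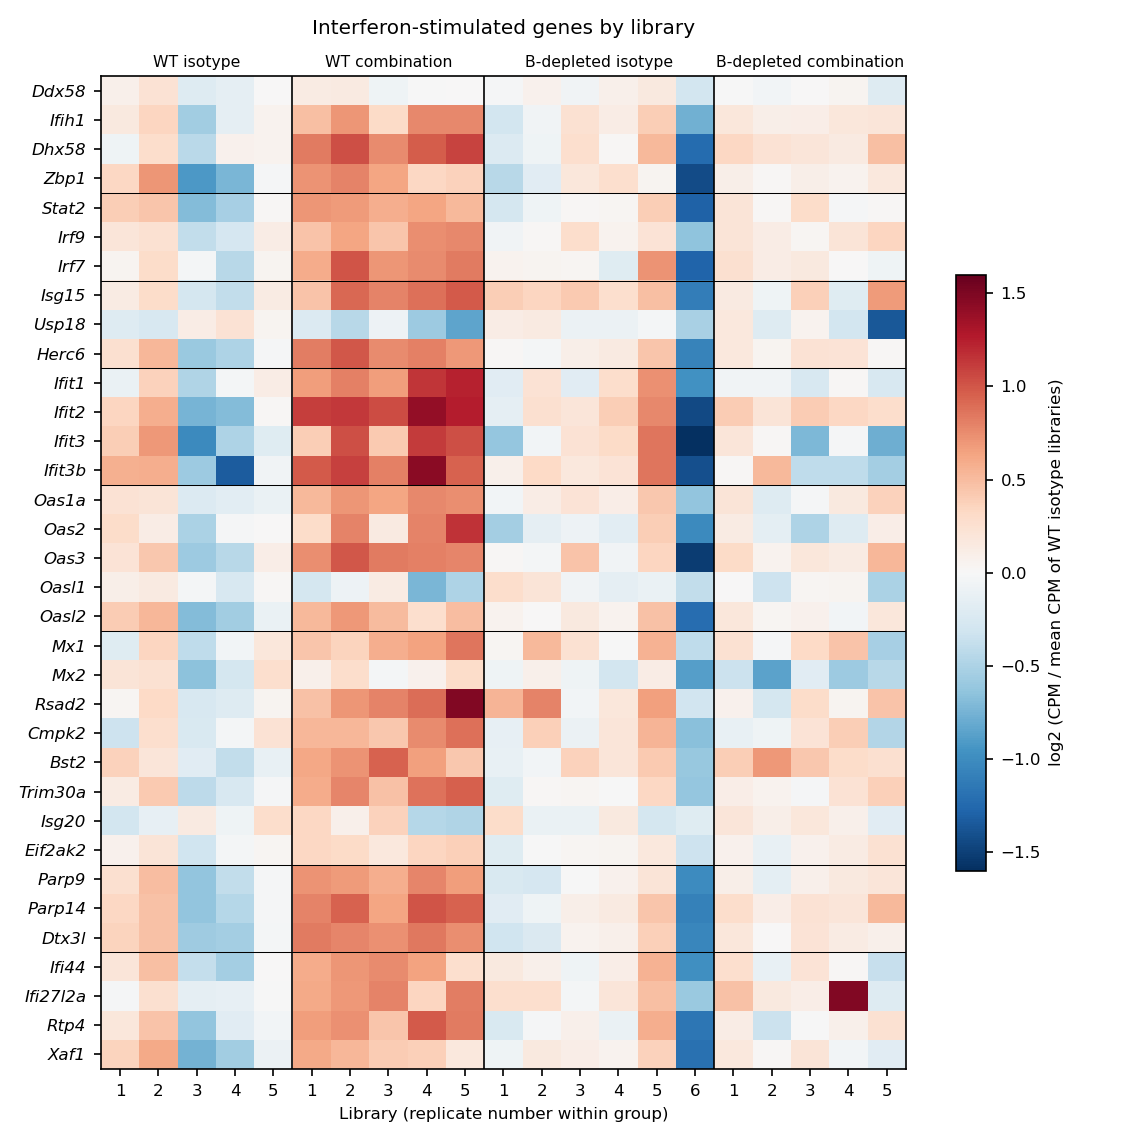
Each cell is the log2 ratio of a member's CPM (counts divided by the library total in M) in 1 library to its mean over the 5 WT isotype libraries, with genes in rows grouped by role and the 21 libraries in columns grouped by arm. The WT combination libraries are red for most members, B-depleted isotype replicate 6 is blue for nearly all, and Usp18, Oasl1, Isg20 and Ddx58 do not follow the other members.

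Total counts ran from 9.52 to 19.17 M per library with a median of 15.9 M, and the lowest count of any member in any library was 24, of Ifit3b. Markers of several cell types differed between the same groups. The summed CPM of 10 hepatoma and hepatocyte markers ran from 1177 to 4475 in WT isotype and from 173 to 1290 in WT combination, with 8 of the 9 tested markers lower. It ran from 1657 to 3369 in B-depleted isotype and from 907 to 2502 in B-depleted combination. The 7 T-cell markers summed to 64.5 to 131, 304 to 482, 44.3 to 171 and 183 to 248 CPM in WT tumours (isotype, then combination) and B-depleted tumours (isotype, then combination), and the 9 macrophage and monocyte markers to 842 to 1655, 2727 to 5269, 617 to 1651 and 1456 to 3221 CPM. All 7 T-cell markers and 8 of 9 macrophage markers rose in WT, and no marker of these 3 lists was at 0 in every library of a group. Under the combination, 8 of 9 tested hepatoma markers were higher in B-depleted than in WT tumours, and 6 of 7 T-cell and 7 of 9 macrophage markers were lower. Of all genes, 25.0% rose and 25.0% fell in WT, and between backgrounds under the combination 15.5% were higher and 13.5% lower. In B-depleted tumours the combination raised 3 of 7 T-cell markers, beside 0.304% of all genes, and 0 of the hepatoma and macrophage markers. The 5 B-cell markers summed to 7 to 16, 30.4 to 67.2, 5.26 to 13.8 and 12.8 to 25.9 CPM in the same order; 0 of 5 were called between backgrounds under isotype and 5 of 5 were lower in B-depleted tumours under the combination. The 5 fibroblast markers summed to 2634 to 4939, 7242 to 25842, 2436 to 5369 and 2859.8 to 24237 CPM; 4 of 5 rose in WT and 0 of 5 were called between backgrounds under the combination, and B-depleted combination replicate 5 held the 24237. Of the conventional dendritic cell and endothelial markers, 2 of 5 and 3 of 5 rose in WT, and 3 of 5 and 0 of 5 were lower in B-depleted tumours under the combination. Transcripts of 4 Y-linked genes summed to 47.6 to 79.2, 135 to 250.5, 46.3 to 119 and 85.9 to 169 CPM in the same order. With that Y-linked level as a covariate, 0 of 34 members were called in WT (median 0.31) and 0 between backgrounds under the combination (median -0.31), while 77 and 4 of all genes were called. Which cells carry the Y-linked transcripts was not tested, so the fit with that covariate is not a measure of cell composition. In bulk tumour RNA, more cells that express a gene and more RNA of that gene per cell cannot be told apart. The part of cell composition in the differences below was not tested.

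The response element can be read in front of several members. The table of RefSeq start regions (GRCm38.p6, 250 bases before to 50 bases after a gene's start) matched 24 members. Entries were not matched for Dhx58, Ifi27l2a, Mx1, Mx2, Oas2, Parp14, Parp9, Rtp4, Usp18 and Zbp1. The core GAAANNGAAA, searched on both strands (TTTCNNTTTC is its other strand) with overlapping matches counted, was in the window of 13 of the 24, beside 3.99% of the 27025 genes in the table. It was in 12 of 19 matched members that rose in WT and in 1 of 5 that were not called, Ddx58. In Ddx58, Eif2ak2 and Ifih1 the only match did not end before the start site, so these count through the part of the window after it. The matched members that rose without the core in the window were Cmpk2, Dtx3l, Herc6, Ifi44, Ifit2, Irf7 and Irf9. The stretches below are shown for 8 risen members with a match, from the ISG15, IFIT, OAS, effector (Rsad2) and signalling groups; they run 5′ to 3′ in the direction of the gene, with the matches in capitals.
Isg15 (chr4:156200855-156200916, minus strand): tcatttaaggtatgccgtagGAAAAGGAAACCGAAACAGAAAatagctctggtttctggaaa
Ifit1 (chr19:34640765-34640833, plus strand): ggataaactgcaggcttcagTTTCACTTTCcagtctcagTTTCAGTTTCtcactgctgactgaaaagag
Ifit3 (chr19:34583353-34583436, plus strand): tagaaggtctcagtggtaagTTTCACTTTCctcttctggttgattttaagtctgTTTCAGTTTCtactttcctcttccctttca
Ifit3b (chr19:34607749-34607832, plus strand): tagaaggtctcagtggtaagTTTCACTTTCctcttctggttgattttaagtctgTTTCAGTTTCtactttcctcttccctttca
Oas1a (chr5:120907510-120907565, minus strand): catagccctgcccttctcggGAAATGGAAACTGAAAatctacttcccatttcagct
Oas3 (chr5:120777705-120777754, minus strand): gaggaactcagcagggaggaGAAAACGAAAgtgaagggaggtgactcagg
Rsad2 (chr12:26456543-26456592, minus strand): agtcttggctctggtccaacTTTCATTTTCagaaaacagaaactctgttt
Stat2 (chr10:128270256-128270305, plus strand): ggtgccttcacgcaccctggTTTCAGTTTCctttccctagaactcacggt
In Isg15, 3 matches overlap in 1 run that ends 57 bases before the start site, and in Ifit1 the last of 2 separate matches ends 76 bases before it. The stretches of Ifit3 and Ifit3b are identical, letter for letter. A match of letters is a description of the window and not evidence of binding.

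The members lie on 14 chromosomes, and 15 of them are within 100 kb of another member. Ifit2, Ifit3, Ifit3b and Ifit1 lie in that order on chr19:34550694-34650009, all on the plus strand (GRCm38, GENCODE M21). Rsad2 and Cmpk2 are neighbours on chromosome 12, Mx1 and Mx2 on chromosome 16, Oasl2 and Oasl1 on chromosome 5, and Oas2 and Oas3 further along chromosome 5. Parp14, Dtx3l and Parp9 are within chr16:35832874-35972605, and Dtx3l and Parp9 overlap on opposite strands. The libraries came from a stranded kit, but whether the counting used strand is not given in the sources used here, so reads in that overlap may be split between both genes.

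Per kilobase of exon, mean levels over all 21 libraries ran from 2.20 CPM per kb for Ifit3b to 43.6 for Bst2. Zbp1 (38.8), Dtx3l (34.1), Parp14 (28.6) and Trim30a (28.3) followed Bst2, and Mx2 (2.23), Cmpk2 (2.94) and Dhx58 (4.39) were next to Ifit3b at the low end. The highest library was 7.19 times the lowest for Ifit3b and 7.17 times for Ifit2, but 1.43 times for Ddx58 and 1.64 times for Eif2ak2.

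Among the 4 sensors, the RNA helicase genes Ifih1 and Dhx58 rose in WT, and Ddx58 and Zbp1 were not called. Ddx58 encodes RIG-I, which binds viral RNA with a 5′ triphosphate. In WT its levels were 135, 149.5, 111, 116 and 128 CPM with isotype and 139.7, 141, 122, 127 and 129 CPM with the combination, in replicate order. In B-depleted tumours it had a lowest value of 104, a median of 130.3 and a highest of 143 CPM with isotype and 127, 124, 129, 132 and 111 CPM with the combination. All 4 groups overlapped, and the WT response was 0.06 ± 0.08, adjusted p = 0.521, with a 95% interval from -0.10 to 0.22 (log2 fold change ± SE here and throughout). Ifih1 encodes MDA5, the sensor of long double-stranded RNA. It was at 60.9, 69.1, 37.1, 49.4 and 56.6 CPM in WT isotype and 76, 89, 67.4, 92.9 and 93.2 CPM in WT combination. B-depleted isotype libraries had a lowest value of 32, a median of 55.9 and a highest of 71.9 CPM, and B-depleted combination libraries had 61.9, 58.3, 59, 62.1 and 62.7 CPM. In WT, 4 of 5 combination libraries lay above all isotype libraries, and all 5 B-depleted combination libraries lay below the WT combination libraries. Ifih1 rose in WT (0.64 ± 0.17, adjusted p = 0.00451) and was lower in B-depleted tumours under the combination (-0.48 ± 0.17, adjusted p = 0.0409).

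Dhx58 encodes LGP2, a helicase that modulates the signals of RIG-I and MDA5. Its level was 10.8, 13.8, 8.41, 11.9 and 11.8 CPM in WT isotype and 20.2, 23.1, 19.2, 22.2 and 24.1 CPM in WT combination. In B-depleted tumours there was a lowest value of 4.85, a median of 11.2 and a highest of 16.3 CPM under isotype, and 14.3, 13.3, 13, 12.5 and 15.9 CPM under the combination. The WT combination libraries stood above every library of the other 3 groups. Dhx58 rose in WT (0.96 ± 0.20, adjusted p = 0.000937) and was lower in B-depleted tumours under the combination (-0.67 ± 0.20, adjusted p = 0.0216), while its response in B-depleted tumours was 0.33 ± 0.19, adjusted p = 0.444. Zbp1 encodes a sensor of Z-form nucleic acid that can start necroptosis. It was at 156, 202, 65.7, 74.7 and 122 CPM in WT isotype and 205, 216, 192, 156 and 160.4 CPM in WT combination. In the B-depleted isotype group it had a lowest value of 46, a median of 119 and a highest of 149 CPM, and in B-depleted combination 132, 126, 132, 129 and 139.7 CPM. WT isotype replicate 2 lay inside the combination range and replicate 1 at its lower end, and the WT difference was 0.61 ± 0.27, adjusted p = 0.0661. Although all 5 B-depleted combination libraries were below WT combination, Zbp1 was not called in that comparison either (-0.51 ± 0.27, adjusted p = 0.152).

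All 3 signalling members, Stat2, Irf9 and Irf7, rose in WT. Stat2 encodes the STAT that is particular to type I and type III interferon signalling. It was at 159.9, 166, 75.5, 84 and 124 CPM in WT isotype and 199, 195, 183, 189 and 175 CPM in WT combination. B-depleted isotype libraries had a lowest value of 49.9, a median of 119 and a highest of 159.8 CPM, and B-depleted combination libraries 140.4, 124, 149, 120 and 124 CPM. Every WT combination library exceeded every WT isotype and every B-depleted library. Stat2 rose in WT (0.65 ± 0.22, adjusted p = 0.0207), a call lost without WT isotype replicate 3 (adjusted p = 0.0568) or replicate 4 (0.0659), and between backgrounds under the combination it was not called (-0.53 ± 0.22, adjusted p = 0.0732). Irf9 encodes the DNA-binding subunit of ISGF3. Its level was 41, 42.4, 27.2, 29.6 and 38.8 CPM in WT isotype and 49, 55.4, 48.5, 60 and 61.2 CPM in WT combination. B-depleted combination libraries of Irf9 were at 41.4, 39, 36.5, 41.4 and 45.3 CPM, and the isotype libraries of that background had a lowest value of 22.9, a median of 36.7 and a highest of 43.6 CPM. The WT combination group stood above both WT isotype and B-depleted combination without overlap. Irf9 rose in WT (0.64 ± 0.14, adjusted p = 0.00152) and was lower in B-depleted tumours under the combination (-0.44 ± 0.14, adjusted p = 0.0287).

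Irf7 encodes the factor that amplifies interferon-alpha transcription once the pathway is on. It was at 37.8, 44.9, 35.8, 27 and 37.7 CPM in WT isotype and 55.3, 73.8, 59.8, 62 and 65.4 CPM in WT combination. B-depleted isotype libraries had a lowest value of 15.1, a median of 37.7 and a highest of 60.2 CPM, and B-depleted combination libraries had 43.7, 39.8, 40.8, 36.8 and 34.9 CPM. WT combination lay above WT isotype and above B-depleted combination without overlap, but B-depleted isotype replicate 5 reached into its range. Irf7 rose in WT (0.81 ± 0.22, adjusted p = 0.00497), was lower in B-depleted tumours under the combination (-0.71 ± 0.22, adjusted p = 0.0234), and its response in B-depleted tumours was 0.11 ± 0.21, adjusted p = 0.838.

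In the ISG15 system, the modifier and a ligase gene rose in WT and the protease gene was not called. Isg15, a ubiquitin-like modifier attached to newly made proteins, averaged 7.44 ± 1.47 CPM in WT isotype and 13.1 ± 1.77 CPM in WT combination (SD, n = 5 each). In B-depleted tumours it averaged 8.67 ± 2.61 CPM (n = 6) under isotype and 8.67 ± 2.18 CPM (n = 5) under the combination. Every WT combination library was above every WT isotype library, while the highest B-depleted combination library, at 11.9 CPM, passed the lowest WT combination library, at 10.2 CPM. Isg15 rose in WT (0.84 ± 0.23, adjusted p = 0.00577) and was not called between backgrounds under the combination (-0.61 ± 0.23, adjusted p = 0.0542). Herc6 encodes the main ligase for ISG15 in mice. It was at 65.2, 79, 36, 38.8 and 53.7 CPM in WT isotype and 96.3, 109, 92.3, 95.6 and 88.5 CPM in WT combination. There was a lowest value of 25.9, a median of 56.9 and a highest of 74.1 CPM in B-depleted isotype, and 61.4, 56.1, 63.9, 63.3 and 55.3 CPM in B-depleted combination. The WT combination libraries exceeded every library of the other 3 groups. Herc6 rose in WT (0.84 ± 0.21, adjusted p = 0.00273) and was lower in B-depleted tumours under the combination (-0.70 ± 0.21, adjusted p = 0.0204), but 23.8% of the 50-base words of its transcript also occur in the predicted gene Gm45193, and how reads of shared words were counted is not known.

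Usp18 encodes the protease that removes ISG15 and also blocks signalling at IFNAR2, a feedback inhibitor of the pathway. Its level was 38.8, 37.4, 48.6, 52.2 and 46.1 CPM in WT isotype and 38.4, 32.9, 42.3, 29.8 and 24.9 CPM in WT combination. B-depleted isotype libraries had a lowest value of 31.1, a median of 42.7 and a highest of 49.3 CPM, and B-depleted combination libraries 50, 38.8, 46.4, 36.3 and 17.5 CPM. No WT combination library exceeded the WT isotype range, 3 of 5 fell below it, and B-depleted combination replicate 5 was the lowest of all 21. The WT estimate was -0.39 ± 0.20, adjusted p = 0.111, with a 95% interval from -0.80 to 0.03. It passed the test in the downward direction when B-depleted combination replicate 5 was left out (-0.39, adjusted p = 0.0321).

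All 4 IFIT genes, whose products bind viral RNA and hold back its translation, rose in WT, and all 4 were lower in B-depleted than in WT tumours under the combination. Start-region stretches with the response element core are shown above for Ifit1, Ifit3 and Ifit3b. Ifit2 had 2 start regions, and the core was in 0 of them. Ifit2, which also has a role in cell death, was at 46.6, 54.9, 21.9, 22.6 and 37.2 CPM in WT isotype and 79.1, 80.4, 75.4, 96.9 and 87.5 CPM in WT combination. With B-cell depletion, Ifit2 had a lowest value of 13.5, a median of 42.9 and a highest of 62.4 CPM under isotype, and 48.6, 42.4, 48.4, 46.1 and 44.5 CPM under the combination. All 5 WT combination libraries lay above every other library of the study, and the B-depleted combination libraries lay within the range of WT isotype. Ifit2 had the largest fold change of the 34 in WT, from 36.6 ± 14.5 to 83.8 ± 8.5 CPM (SD, n = 5 each; 1.22 ± 0.28, adjusted p = 0.00173). Between backgrounds under the combination it differed by -0.88 ± 0.28, adjusted p = 0.0259. Ifit1, whose product recognises RNA caps that lack methylation, was at 12.5, 17.3, 9.64, 13.1 and 14.6 CPM in WT isotype and 21.4, 23.5, 21.4, 29.7 and 31.5 CPM in WT combination. The B-depleted groups had a lowest value of 6.89, a median of 13.7 and a highest of 22.3 CPM for isotype, and 12.9, 12.9, 11.2, 13.6 and 11.2 CPM for the combination. The WT combination group did not overlap WT isotype or B-depleted combination, although B-depleted isotype replicate 5 exceeded its lowest libraries. Ifit1 rose in WT (0.95 ± 0.21, adjusted p = 0.00155) and had the smallest adjusted p of the members between backgrounds under the combination (-1.06 ± 0.22, adjusted p = 0.00628). Its response differed between backgrounds by -1.12 ± 0.30, adjusted p = 0.0786, which did not pass. Ifit1 shares 7.06% of its 50-base words with Ifit1bl2.

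Ifit3 and Ifit3b encode near-identical adaptors of the IFIT complex. Of the 50-base words of Ifit3, 51.2% occur in Ifit3b, and 44.5% of those of Ifit3b occur in Ifit3, so how reads were divided between them is uncertain. Ifit3 was at 12.5, 15.4, 4.7, 6.81 and 8.33 CPM in WT isotype and 12.5, 19.5, 12.8, 20.8 and 19.5 CPM in WT combination. Ifit3 in B-depleted tumours had a lowest value of 3.13, a median of 10.2 and a highest of 17.3 CPM with isotype, and 10.9, 9.71, 5.8, 9.42 and 5.57 CPM with the combination. In WT the groups overlapped, with 3 of 5 combination libraries above all isotype libraries. Ifit3 rose with an adjusted p close to the threshold (0.86 ± 0.35, adjusted p = 0.0478), the call held in 9 of 21 refits that left out 1 library, and the highest adjusted p, 0.113, came without WT isotype replicate 3. Under the combination it was lower in B-depleted tumours (-1.06 ± 0.36, adjusted p = 0.0332), without overlap. Ifit3b was at 5.08, 5.12, 2.29, 1.37 and 3.31 CPM in WT isotype and 6.8, 7.36, 5.98, 9.37 and 6.58 CPM in WT combination. In the B-depleted isotype group it had a lowest value of 1.3, a median of 3.93 and a highest of 6.23 CPM, and in B-depleted combination 3.47, 4.93, 2.6, 2.6 and 2.36 CPM. No WT combination library overlapped WT isotype or B-depleted combination. Ifit3b rose in WT (1.09 ± 0.34, adjusted p = 0.0112) and had the largest difference of the members between backgrounds under the combination (-1.20 ± 0.34, adjusted p = 0.0179). Its lowest libraries held 24 counts in WT isotype, 25 in B-depleted isotype and 32 in B-depleted combination, so counting error adds to its spread.

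**Figure D2:**
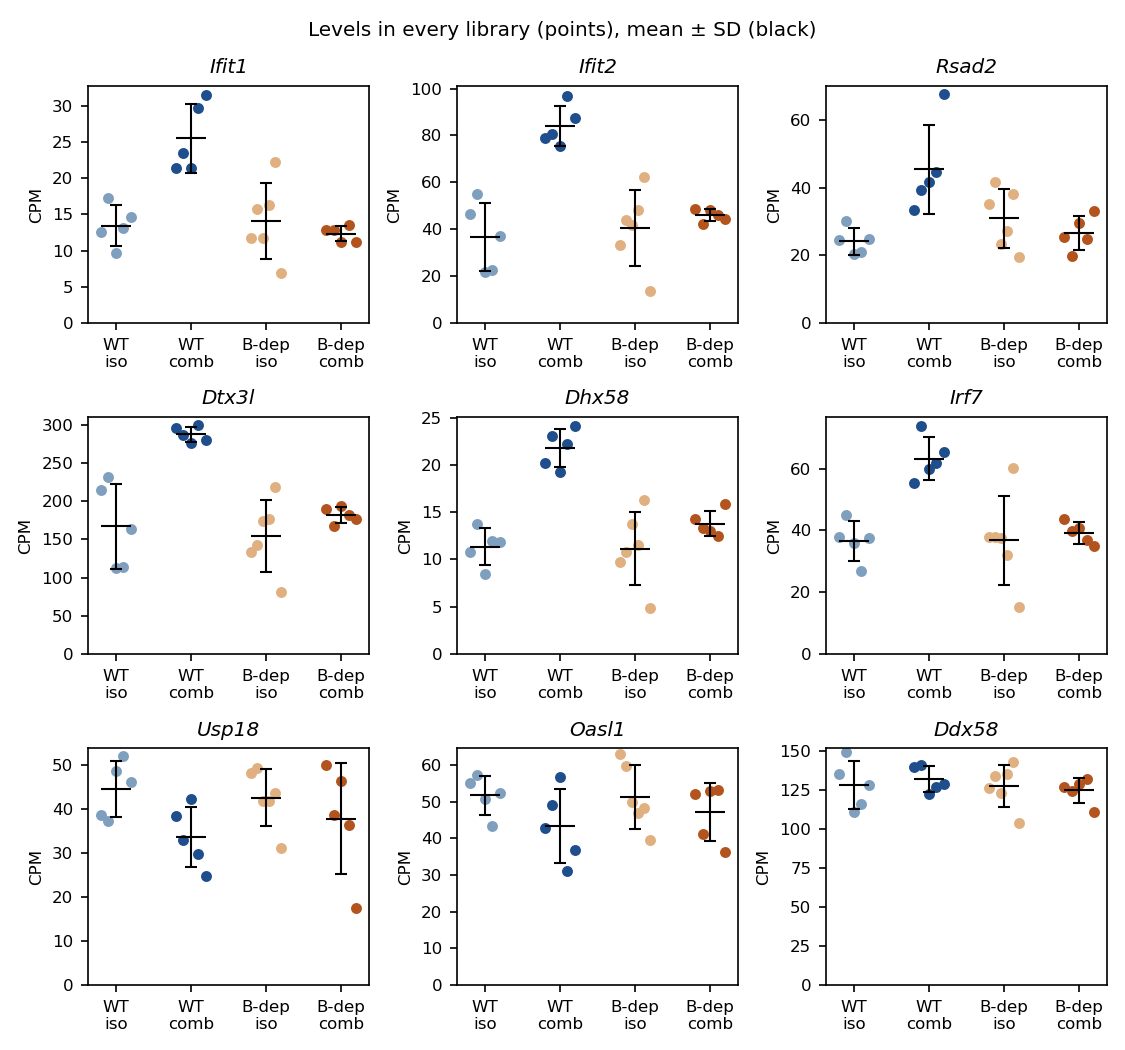
CPM of 9 members in each of the 21 libraries (points, in replicate order within a group), with the mean and SD of each group in black; each axis starts at 0. In Ifit2 and Dtx3l all 5 WT combination libraries lie above all other libraries, whereas the groups of Usp18, Oasl1 and Ddx58 overlap.

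In the OAS family, the 3 synthetase genes Oas1a, Oas2 and Oas3 rose in WT, and Oasl1 and Oasl2 were not called. The synthetases make 2′-5′ oligoadenylate, which activates RNase L. Oas1a was at 16.7, 16.4, 12.3, 12.7 and 13.2 CPM in WT isotype and 20.5, 23.3, 22.1, 24.4 and 23.8 CPM in WT combination. B-depleted combination libraries of Oas1a were at 16.4, 12.4, 14.1, 15.9 and 18.4 CPM, and the isotype libraries of that background had a lowest value of 9.18, a median of 15.4 and a highest of 19.3 CPM. The WT combination libraries exceeded every other library. Oas1a rose in WT (0.70 ± 0.15, adjusted p = 0.00124) and was lower in B-depleted tumours under the combination (-0.58 ± 0.15, adjusted p = 0.0138); 57.6% of its 50-base words occur in Oas1g, so its counts are uncertain. Oas2 was at 31.8, 28.3, 18.3, 25.7 and 26.1 CPM in WT isotype and 31.9, 45.2, 28.7, 45.1 and 58.1 CPM in WT combination. With B-cell depletion, Oas2 had a lowest value of 12.8, a median of 23.4 and a highest of 34.1 CPM under isotype, and 28.5, 23.3, 18.5, 22.5 and 28.1 CPM under the combination. WT combination replicate 3 lay within the isotype range, and the other 4 were above it, if only just for replicate 1. Oas2 rose in WT (0.71 ± 0.22, adjusted p = 0.0124) and was lower in B-depleted tumours under the combination (-0.80 ± 0.22, adjusted p = 0.0158). Oas3 averaged 34.4 ± 10.1 CPM in WT isotype and 61.4 ± 4.3 CPM in WT combination (SD, n = 5 each), and 34.2 ± 12.3 CPM (n = 6) and 41 ± 5.54 CPM (n = 5) in the B-depleted groups. It rose in WT without overlap (0.86 ± 0.24, adjusted p = 0.00741); between backgrounds under the combination it did not overlap but was not called (-0.59 ± 0.24, adjusted p = 0.0708).

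The OAS-like genes encode proteins with ubiquitin-like tails. Mouse Oasl1 is known as a repressor of Irf7 translation, and Oasl2 retains synthetase activity. Oasl1 was at 55, 57.3, 50.7, 43.2 and 52.3 CPM in WT isotype and 42.7, 49, 56.7, 31.2 and 36.8 CPM in WT combination. The B-depleted groups had a lowest value of 39.4, a median of 49 and a highest of 63 CPM for isotype, and 52.1, 41.1, 52.8, 53.2 and 36.3 CPM for the combination. No WT combination library exceeded the WT isotype range and 3 fell below it, with an estimate of -0.23 ± 0.15, adjusted p = 0.204; the test was passed in the downward direction without WT combination replicate 3 (-0.37, adjusted p = 0.041). Its neighbour Oasl2 was at 163, 178, 76.5, 83.9 and 115 CPM in WT isotype and 176, 200, 175, 148 and 173 CPM in WT combination. Oasl2 in B-depleted tumours had a lowest value of 52.9, a median of 128 and a highest of 170.3 CPM with isotype, and 139.7, 126, 129, 120.1 and 140 CPM with the combination. In WT, 1 combination library lay above all isotype libraries, and isotype replicate 2 exceeded 4 of the 5 combination libraries. The WT estimate of Oasl2 was 0.53 ± 0.23, adjusted p = 0.0653, and between backgrounds under the combination it was -0.43 ± 0.23, adjusted p = 0.159.

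Of the 8 direct antiviral effectors, 6 rose in WT and Mx2 and Isg20 were not called. Trim30a, a ring-finger protein that restrains inflammatory signalling in mice, had the smallest adjusted p of the 34 in WT. It was at 108, 131, 73.4, 82.7 and 97 CPM in WT isotype and 148, 169, 136, 179 and 191 CPM in WT combination. B-depleted isotype libraries had a lowest value of 63.9, a median of 98.8 and a highest of 124 CPM, and B-depleted combination libraries 106, 102, 97.1, 116 and 128 CPM. WT combination exceeded every other library. Trim30a rose in WT (0.76 ± 0.16, adjusted p = 0.000798) and was lower in B-depleted tumours under the combination (-0.59 ± 0.16, adjusted p = 0.0133). Eif2ak2 encodes PKR, the kinase that stops translation when it binds double-stranded RNA. It was at 57.5, 63.3, 43.9, 53.8 and 56.1 CPM in WT isotype and 69.3, 67.8, 62, 69.9 and 71.5 CPM in WT combination. In the B-depleted isotype group it had a lowest value of 43.6, a median of 55.3 and a highest of 61.8 CPM, and in B-depleted combination 57.4, 50.6, 57.5, 60.2 and 65.3 CPM. The combination libraries were narrowly higher, and 1 of 5 was within the isotype range. Eif2ak2 had the smallest rise among the 26 called members (0.33 ± 0.10, adjusted p = 0.00773), and it was not called between backgrounds under the combination (-0.24 ± 0.10, adjusted p = 0.0635).

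Rsad2 encodes viperin, which makes a chain-terminating nucleotide from CTP, and its neighbour Cmpk2 encodes a nucleotide kinase. Rsad2 was at 24.6, 30.1, 20.3, 20.9 and 24.9 CPM in WT isotype and 33.5, 39.3, 41.8, 44.8 and 67.7 CPM in WT combination. B-depleted combination libraries of Rsad2 were at 25.4, 19.8, 29.5, 24.8 and 33.1 CPM, and the isotype libraries of that background had a lowest value of 19.6, a median of 31.3 and a highest of 41.8 CPM. WT combination replicate 5 was the highest of all libraries, and WT combination overlapped neither WT isotype nor B-depleted combination. Rsad2 rose in WT (0.94 ± 0.21, adjusted p = 0.00149) and was lower in B-depleted tumours under the combination (-0.79 ± 0.21, adjusted p = 0.014), and its responses differed by -1.13 ± 0.29, adjusted p = 0.0761. Cmpk2 was at 8.45, 12.8, 8.94, 10.4 and 12.5 CPM in WT isotype and 15.3, 15.3, 14.3, 18 and 19.5 CPM in WT combination. With B-cell depletion, Cmpk2 had a lowest value of 6.68, a median of 11 and a highest of 15.5 CPM under isotype, and 9.77, 10.1, 12.4, 14 and 7.64 CPM under the combination. As with Rsad2, WT combination stood apart from WT isotype and from B-depleted combination. Cmpk2 rose in WT (0.66 ± 0.19, adjusted p = 0.00719) and was lower in B-depleted tumours under the combination (-0.63 ± 0.19, adjusted p = 0.0211).

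MX proteins are dynamin-like GTPases that trap viral ribonucleoprotein, and whether these mice make a functional MX protein cannot be read from RNA counts. Mx1 averaged 27.6 ± 5.52 CPM in WT isotype and 41.4 ± 5.67 CPM in WT combination (SD, n = 5 each), and 31.5 ± 7.56 CPM (n = 6) and 30.2 ± 7.27 CPM (n = 5) in the B-depleted groups. It rose in WT without overlap (0.61 ± 0.18, adjusted p = 0.00879), and between backgrounds under the combination it was not called (-0.48 ± 0.18, adjusted p = 0.0512). Mx2, which the annotation lists as a polymorphic pseudogene, was at 9.99, 10.2, 5.47, 7.1 and 10.4 CPM in WT isotype and 9.11, 10.5, 8.43, 9.08 and 10.6 CPM in WT combination. The B-depleted groups had a lowest value of 4.7, a median of 8.25 and a highest of 9.37 CPM for isotype, and 6.83, 4.78, 7.59, 5.77 and 6.35 CPM for the combination. WT isotype and WT combination overlapped, and all 5 B-depleted combination libraries were below WT combination. Mx2 was not called in WT (0.17 ± 0.18, adjusted p = 0.444) and was the 1 member called between backgrounds under the combination that had not risen in WT (-0.62 ± 0.18, adjusted p = 0.0206). It shares 6.55% of its 50-base words with Mx1, and how reads of shared words were counted is not known.

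Bst2 encodes tetherin, which holds budding virus at the cell surface. It averaged 31.7 ± 6.81 CPM in WT isotype and 50.9 ± 6.61 CPM in WT combination, against 33.4 ± 8.09 and 42.5 ± 5.33 CPM in the B-depleted groups (SD, n = 5, 5, 6 and 5). It rose in WT without overlap (0.70 ± 0.16, adjusted p = 0.00193). Bst2 was the member with an unadjusted p under 0.05 in B-depleted tumours, where the edgeR response was 0.36 ± 0.16, adjusted p = 0.293, and between backgrounds under the combination it was not called (-0.28 ± 0.16, adjusted p = 0.194). Isg20 encodes an exonuclease of single-stranded RNA. It was at 13.9, 15.6, 18.8, 16.3 and 20.8 CPM in WT isotype and 21.5, 18, 22.1, 12.4 and 12.2 CPM in WT combination. Isg20 in B-depleted tumours had a lowest value of 14.1, a median of 15.8 and a highest of 20.9 CPM with isotype, and 19.5, 18.3, 19.4, 18.1 and 15 CPM with the combination. In WT combination 2 libraries were above the isotype range and 2 below it. The WT estimate was 0.03 ± 0.16, adjusted p = 0.882, and its sign changed in some refits that left out a library.

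The 3 members of the PARP and DTX3L group rose together in WT and were all lower in B-depleted tumours under the combination. PARP9 and the ubiquitin ligase DTX3L form a complex that acts in DNA repair, and PARP14 is an ADP-ribosyltransferase. Parp14 was at 269, 297, 139, 156 and 211 CPM in WT isotype and 373, 414, 333, 432 and 413 CPM in WT combination. In the B-depleted isotype group it had a lowest value of 101, a median of 217 and a highest of 292 CPM, and in B-depleted combination 261, 231, 251, 245 and 307 CPM. The WT combination libraries were above all 16 others. Parp14 rose in WT (0.90 ± 0.22, adjusted p = 0.0024) and was lower in B-depleted tumours under the combination (-0.61 ± 0.21, adjusted p = 0.0388). Dtx3l was at 214, 231, 112, 114 and 163 CPM in WT isotype and 296, 286, 276, 299 and 280.3 CPM in WT combination. B-depleted combination libraries of Dtx3l were at 189, 167, 194, 182 and 177 CPM, and the isotype libraries of that background had a lowest value of 81.2, a median of 158 and a highest of 218 CPM. WT combination libraries lay close together and above all others, while WT isotype fell into high replicates 1 and 2 and low replicates 3 and 4. Dtx3l rose in WT (0.81 ± 0.20, adjusted p = 0.00322) and was lower in B-depleted tumours under the combination (-0.68 ± 0.20, adjusted p = 0.0212). Parp9 was at 99.4, 117, 53.4, 62.9 and 81.8 CPM in WT isotype and 137, 133, 124, 143 and 132 CPM in WT combination. With B-cell depletion, Parp9 had a lowest value of 41.3, a median of 76.3 and a highest of 95.5 CPM under isotype, and 88.2, 74.1, 87.6, 92 and 95.1 CPM under the combination. Again all 5 WT combination libraries exceeded the rest. Parp9 rose in WT (0.71 ± 0.19, adjusted p = 0.00443) and was lower in B-depleted tumours under the combination (-0.63 ± 0.19, adjusted p = 0.0218).

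Of the other 4 induced genes, Ifi44, Ifi27l2a and Rtp4 rose in WT and Xaf1 was not called. Xaf1 encodes an antagonist of the apoptosis inhibitor XIAP. It was at 72.4, 86.1, 33.5, 38.5 and 53.1 CPM in WT isotype and 86.7, 81.9, 75.2, 74.1 and 64 CPM in WT combination. The B-depleted groups had a lowest value of 24.8, a median of 60 and a highest of 73.2 CPM for isotype, and 63.6, 57.5, 65.6, 55 and 50.2 CPM for the combination. WT isotype replicates 1 and 2 reached the combination range, and the WT estimate was 0.45 ± 0.23, adjusted p = 0.11. Ifi44 encodes a cytoplasmic protein known mainly as an interferon marker. It was at 34.8, 42.5, 23.5, 21 and 30.7 CPM in WT isotype and 45.9, 49.6, 51.3, 47.5 and 36.6 CPM in WT combination. Ifi44 in B-depleted tumours had a lowest value of 15.4, a median of 32.6 and a highest of 45 CPM with isotype, and 36.9, 28, 35.5, 30.9 and 23.6 CPM with the combination. WT combination replicate 5 lay within the isotype range and the other 4 above it. Ifi44 rose in WT (0.62 ± 0.21, adjusted p = 0.0197), a call lost without WT isotype replicate 4 (adjusted p = 0.0641), and was lower in B-depleted tumours under the combination (-0.60 ± 0.21, adjusted p = 0.0403).

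Rtp4 encodes a chaperone of chemosensory receptors that is also induced by interferon. It was at 26.1, 31.5, 14.9, 20.3 and 22.3 CPM in WT isotype and 36.5, 38.3, 31.4, 45.6 and 40.9 CPM in WT combination. In the B-depleted isotype group it had a lowest value of 10.3, a median of 22.1 and a highest of 34.3 CPM, and in B-depleted combination 25, 18.2, 23, 24.4 and 27.3 CPM. In WT, 4 of 5 combination libraries lay above all isotype libraries, and all 5 B-depleted combination libraries were below the WT combination libraries. Rtp4 rose in WT (0.77 ± 0.22, adjusted p = 0.00826) and was lower in B-depleted tumours under the combination (-0.72 ± 0.22, adjusted p = 0.0248), with 13.6% of its 50-base words shared with the predicted gene Gm45338. Ifi27l2a, a small protein of mitochondria and the nuclear envelope, averaged 7.97 ± 0.924 CPM in WT isotype and 12.6 ± 1.6 CPM in WT combination, against 8.74 ± 2 and 11.5 ± 6.14 CPM in the B-depleted groups (SD, n = 5, 5, 6 and 5). It rose in WT (0.68 ± 0.24, adjusted p = 0.0248), a call lost without WT isotype replicate 4 (adjusted p = 0.0583) or replicate 5 (0.0526). Between backgrounds under the combination it was not called (-0.15 ± 0.24, adjusted p = 0.653), and without B-depleted combination replicate 4, which held 22.2 CPM, that estimate was -0.54 (adjusted p = 0.0412).

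**Figure D3:**
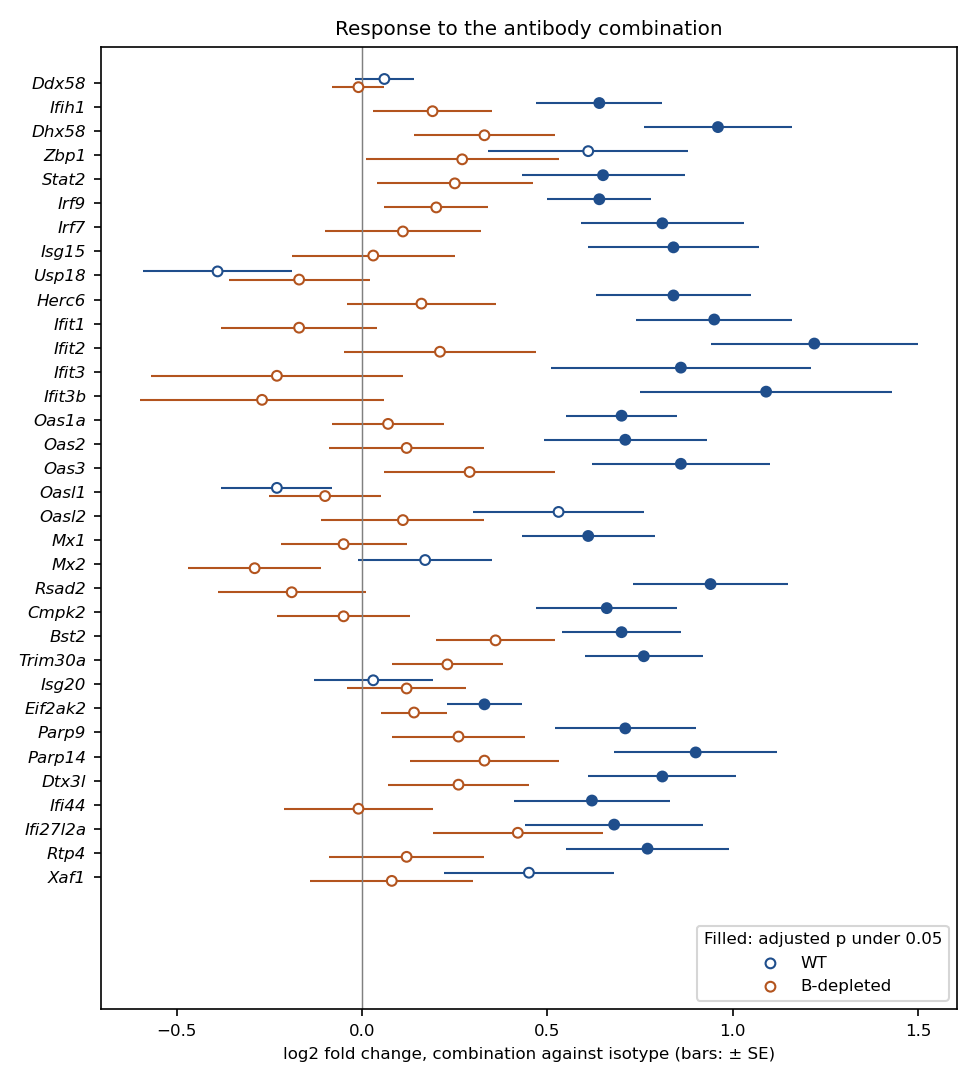
Points are log2 fold changes of the combination against isotype with bars of ± SE for each member in WT (blue) and B-depleted tumours (orange), filled where the edgeR adjusted p was under 0.05. In WT 26 of 34 points are filled, and in B-depleted tumours none is filled and the points lie between -0.29 and 0.42.

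Although no member was called in B-depleted tumours, their intervals leave room for moderate changes. Over the 34 members the 95% intervals of the B-depleted response ran from -0.96 at the lowest bound to 0.90 at the highest. For Ifit2 the interval was -0.35 to 0.76 and for Dhx58 -0.07 to 0.74, beside WT estimates of 1.22 and 0.96. By role, the median B-depleted response was -0.20 for the IFIT family and 0.26 for the PARP and DTX3L group, and in WT these groups had medians of 1.02 and 0.81. Under isotype antibody the median difference between backgrounds was -0.02, with a range from -0.21 to 0.34, so the B-depleted isotype libraries as a group lay near WT isotype.

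Single libraries differed across most members at once. In B-depleted isotype, replicate 6 was the lowest of its group for 33 of 34 members, at a median of 54.1% of the group mean, and replicate 5 was the highest for 27, at 131%. In WT isotype, replicate 2 was the highest for 28 members (126%) and replicate 3 the lowest for 25 (73.0%). Expressed as the median ratio over members to the WT isotype mean, the WT combination libraries ran from 1.5 to 1.71, the B-depleted combination libraries from 1.01 to 1.13 and the B-depleted isotype libraries from 0.502 to 1.34. WT isotype replicates 1 and 2 also had the lowest hepatoma marker sums of their group, 1177 and 1287 CPM. With both left out, 29 members were called in WT, 22 between backgrounds under the combination and 0 in B-depleted tumours. Of all genes, 24.5% were then called higher and 24.8% lower in WT, and 15.1% and 13.9% between backgrounds under the combination. In B-depleted tumours these shares were 0.167% and 0.0354%.

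The spread between libraries was smaller under the combination for most members. In WT the coefficient of variation was lower in the combination than in the isotype group for 28 of 34 members, beside 43.6% of all tested genes. Its median over members was 12.6% in WT combination and 21.8% in WT isotype. In B-depleted tumours it was lower under the combination for 31 of 34 members, beside 40.7% of all genes, with medians of 11.3% and 29.3%. The B-depleted isotype coefficients include replicate 6, the lowest of its group for 33 of 34 members at a median of 54.1% of the group mean. For Isg15 it was at 3.44 CPM, and the other libraries of that group were at 8.96 to 10.4 CPM. The spread without replicate 6 was not computed, so how much of this difference rests on that library is not known. Dtx3l, for example, had a coefficient of variation of 33.1% in WT isotype and 3.45% in WT combination. These coefficients rest on 5 or 6 libraries, members rise and fall together between libraries, and the difference in spread was not tested.

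**Figure D4:**
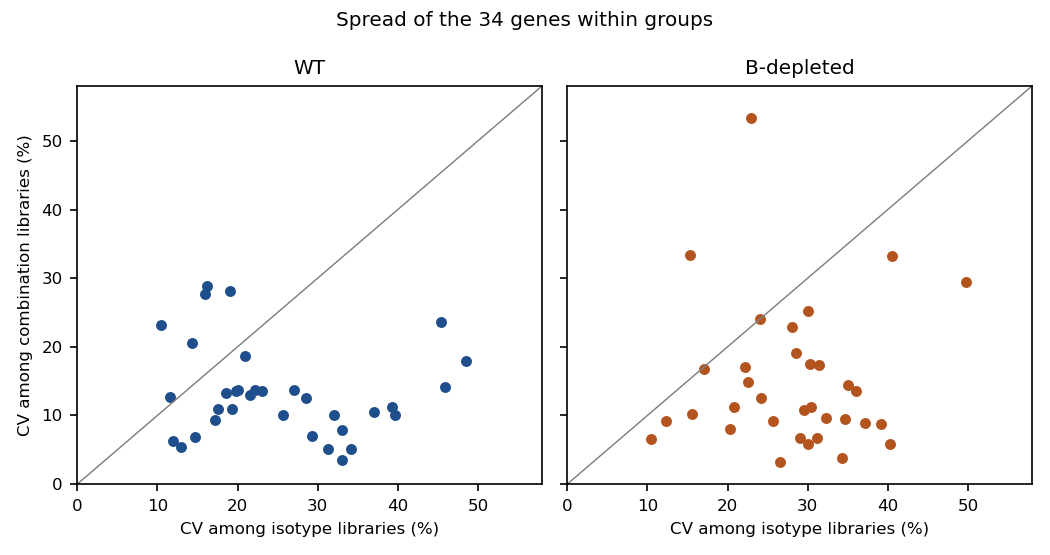
Each point is 1 of the 34 members, with its coefficient of variation (SD over mean CPM, %) among isotype libraries on the horizontal axis and among combination libraries on the vertical axis, for WT (left) and B-depleted tumours (right); the grey line marks equal spread. In WT 28 points and in B-depleted tumours 31 points lie below the line.

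Upstream of the members, transcripts of the type I interferons themselves were scarce. The 18 type I ligand genes (13 of the interferon-alpha genes, Ifnab, Ifnb1, Ifne, Ifnk and Ifnz) held 49 counts in all 21 libraries together. Of these, 6 were at 0 in every library, and the highest value was 4 counts of 1 gene in 1 library. A gene at 0 in all 21 libraries allows a level of up to 0.0092 CPM over the pooled libraries (3 counts, counting error only), and none of the 18 passed the filter for testing. Ifnb1 had 6 counts in 5 libraries. At this depth a difference between groups in these ligands was not detectable.

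Ifng, the interferon-gamma gene, was the tested ligand. It was at 1.55, 3.39, 1, 1.6 and 2.04 CPM in WT isotype and 9.11, 11, 7.36, 11.1 and 8.6 CPM in WT combination. In B-depleted combination it was at 5.78, 5.47, 3.72, 3.82 and 5.28 CPM, and in B-depleted isotype it ran from 0.522 to 2.67 CPM. All combination libraries of both backgrounds lay above all isotype libraries, and the 5 B-depleted combination libraries lay below the 5 WT ones. Ifng rose in WT (2.33 ± 0.32, adjusted p = 5.85e-05) and in B-depleted tumours (1.51 ± 0.31, adjusted p = 0.0373), and under the combination it was lower in B-depleted tumours (-0.99 ± 0.30, adjusted p = 0.0239). Leaving out 1 library at a time, the B-depleted rise was called in 13 of 21 refits (highest adjusted p 0.121) and the difference between backgrounds in 17 of 21 (highest 0.0638). The difference between its responses was not called (-0.82 ± 0.44, adjusted p = 0.236).

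Of 11 receptor and signal-chain genes, 8 rose in WT and Jak2 and Ifnlr1 fell, beside 25.0% of all genes in each direction. The 3 with the smallest p were Jak1, the kinase shared by both interferon receptors (0.81 ± 0.13, adjusted p = 0.000127), the receptor subunit gene Ifnar2 (0.84 ± 0.14, adjusted p = 0.000235) and the feedback inhibitor Socs1 (1.23 ± 0.21, adjusted p = 0.000271). In B-depleted tumours 0 of the 11 were called. Under the combination 5 were lower and 2 higher in B-depleted tumours, beside 13.5% and 15.5% of all genes. Jak1 (-0.53 ± 0.13, adjusted p = 0.00981) and Ifnar2 (-0.50 ± 0.14, adjusted p = 0.0179) were among the lower ones, and Socs1 was not called (-0.56 ± 0.21, adjusted p = 0.0531). Of 15 genes that sense nucleic acid or induce interferon, 8 rose in WT and 0 fell, beside 25.0% of all genes in each direction. Under the combination 5 of the 15 were lower in B-depleted tumours, beside 13.5% of all genes. Irf8, a factor of myeloid cells (0.77 ± 0.11, adjusted p = 6.6e-05), Irf5, a factor downstream of Toll-like receptors (0.80 ± 0.16, adjusted p = 0.000628), and Tlr7, a receptor for single-stranded RNA (1.52 ± 0.32, adjusted p = 0.000927), had the smallest p in WT. Irf8 (-0.48 ± 0.11, adjusted p = 0.00828), Irf5 (-0.46 ± 0.16, adjusted p = 0.0367) and Tlr7 (-0.98 ± 0.31, adjusted p = 0.0275) were lower in B-depleted tumours under the combination. In refits without 1 library these differences between backgrounds were called 18 of 21 times for Ifnar2, 14 of 21 for Irf5 and 16 of 21 for Tlr7.

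Among 34 tested genes of a further ISG list with no member in it, 27 rose in WT, 0 fell and 0 were called in B-depleted tumours. Under the combination 20 of them were lower in B-depleted tumours. Of all genes, 25.0% rose in WT and 13.5% were lower in B-depleted tumours under the combination. Shisa5 (0.96 ± 0.14, adjusted p = 6.57e-05), Samhd1, which encodes a nucleotide triphosphohydrolase that restricts retroviruses (1.22 ± 0.21, adjusted p = 0.000249), and Lgals3bp (0.68 ± 0.12, adjusted p = 0.000279) had the smallest p. Of 12 genes listed here as induced mainly by interferon-gamma, 11 rose in WT, beside 25.0% of all genes, and the median log2 fold change of the list was 1.14. They included Nos2, the inducible nitric oxide synthase (2.62 ± 0.27, adjusted p = 1.33e-05), Serpina3g, a serine protease inhibitor (1.38 ± 0.25, adjusted p = 0.000344), and Cxcl10, a chemokine that draws T cells (0.92 ± 0.19, adjusted p = 0.000935). In B-depleted tumours 0 of these 12 were called, with a median of 0.55. Under the combination 3 of 12 were lower in B-depleted tumours, beside 13.5% of all genes. Nos2 (-1.41 ± 0.26, adjusted p = 0.00512) and Serpina3g (-0.73 ± 0.25, adjusted p = 0.035) were among the 3, and Cxcl10 was not (-0.14 ± 0.19, adjusted p = 0.596); the call of Serpina3g held in 13 of 21 refits without 1 library. Both interferon types raise many of the same genes, so these lists do not separate them. The part of type I against type II interferon in the members' differences was not tested.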

How the data were processed

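The 21 libraries, from Hepa1-6 tumour tissue, were made with a stranded mRNA kit, per the labels. The deposited table holds whole-number read counts per gene; cutadapt 2.4, STAR 2.7.2a and the build GRCm38 were used, per the submitters' processing notes. For the read counter and the gene annotation, the name and release were not given in the sources used here. Symbols are those of GENCODE M21, and the 260 without a symbol held 0.0183% of the counts. All 21 columns were mapped to samples by title; 0 columns were left out.

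The counts were fitted in R 4.3.3 with edgeR 4.0.16 (filterByExpr, TMM scaling, robust quasi-likelihood test) as a single model of the 4 groups over the 21 libraries with no covariate, giving 5 comparisons. The common biological coefficient of variation was 0.246 and TMM factors ran from 0.953 to 1.029. Adjusted p-values run over all 19061 tested genes. CPM is counts over the library total in M. Totals of 9.52 to 19.17 M make 1 CPM worth about that many counts, and the lowest member counts in a library were 24 for Ifit3b and 60 for Ifit3, where counting error is not negligible. DESeq2 1.42.0, no filter, the replicate number as a block, a fit on only the 2 groups compared, a Y-linked covariate and leaving out each library were tried as alternatives.

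The members, role groups, pathway lists and markers were chosen with earlier results of these data known. Library values (for the 6 B-depleted isotype libraries, the lowest, median and highest) are printed for the 2 members of each role with the highest mean CPM, for members called in a comparison other than that in WT, and for members not called in WT; of each pathway list, the 3 genes of smallest p in WT are named. The counts of the receptor and signal-chain list omit 1 gene, which is not reported here. Further genes named beside these are Jak2, Ifnlr1, Siglech and the other plasmacytoid markers, chosen after their values were seen. Shared 50-base words were counted between GENCODE M21 transcripts of a member and of other genes. Start regions are from RefSeq, GRCm38.p6.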

Additional observations from a re-analysis of the deposited data

Results flagged for a closer look

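In each of 136 sets (34 members in 4 groups), the highest or lowest library was compared with its nearest neighbour as a share of the group's range, a measure that chance puts past its 95% critical value in about 1 in 20 groups. Only 2 sets were past it. Isg15 in B-depleted isotype replicate 6 was at 3.44 CPM, and the next lowest library of the group was at 8.96 CPM, a gap of 0.789 of the range. Ifi27l2a in B-depleted combination replicate 4 was at 22.2 CPM, with the next highest at 11 CPM and a gap of 0.731 of the range. Neither library passed that value for any other member.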

How the results depend on the processing

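The direction of the 26 calls in WT and of the 20 between backgrounds under the combination was kept in all 21 refits without 1 library, and 22 and 4 of them, respectively, were called in every refit. The 4 were Ifit1, Oas1a, Trim30a and Herc6. Without 1 library the number of members called ran from 22 to 29 in WT and 0 to 0 in B-depleted tumours and under isotype. It ran from 7 to 24 between backgrounds under the combination and 0 to 3 for the difference between responses. Over the same refits, 20.6% to 26.2% of all genes were called higher in WT, and 4.74% to 19.2% lower between backgrounds under the combination. The lowest counts between backgrounds came without WT combination replicate 4 (7) or 5 (7) and without B-depleted combination replicate 2 (11) or 3 (12). For the difference between responses, calls came without WT combination replicate 1 (1) or 3 (2) and without B-depleted combination replicate 5 (3). In the same order, 1.41%, 5.84% and 4.23% of all genes were called higher there, and 0.456%, 2.13% and 2.92% lower. With no filter on low counts, 10 members were called between backgrounds under the combination and 23 in WT, beside 3.57% of genes lower and 9.96% higher. DESeq2 called 26, 0, 0, 23 and 2 members in the 5 comparisons. Of all genes it called 25.9%, 1.66%, 0%, 17.5% and 4.85% higher, and 27%, 0.552%, 0.0263%, 16.4% and 2.5% lower. A fit on only the 2 groups called 26 members in WT, beside 24.5% of all genes higher and 23.1% lower. It called 26 between backgrounds under the combination, beside 9.48% higher and 11.6% lower.

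With the Y-linked level as a covariate, 0 members were called in WT and 0 between backgrounds under the combination, and the sign of some estimates reversed. In WT these were Ifit3 (-0.26), Oas2 (-0.25), Mx2 (-0.08), Ifih1 (-0.03), Eif2ak2 (-0.01), Oasl1 (0.30) and Usp18 (0.33), and between backgrounds Oasl1 (-0.20), Usp18 (-0.29) and Isg20 (-0.30). That level itself differs between the groups, so its part and that of the treatment cannot be told apart. Isg20 in WT was -0.11 without the 2 or the 3 libraries named next and ran from -0.09 to 0.14 without 1 library; between backgrounds under the combination it ran from -0.06 to 0.17. Chosen after seeing the data, leaving out WT isotype replicates 1 and 2 gave 29 calls in WT, 22 between backgrounds and 10 for the difference between responses. Leaving out B-depleted combination replicate 5 as well gave 30 in WT (Usp18 among them, lower at -0.54), 22 and 14. The B-cell transcripts of that library reached the WT isotype range. Of all genes, the fit without 2 libraries called 24.5% higher and 24.8% lower in WT, and 15.1% and 13.9% between backgrounds. The fit without 3 called 25.4% and 26.4% in WT, and 20.7% and 19.3% between backgrounds. For the difference between responses these fits called 6.23% and 3.91%, then 12.5% and 8.89%.

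With the replicate number as a block, 29 members were called in WT and 24 between backgrounds under the combination. That fit called 0 in B-depleted tumours, 0 under isotype and 0 for the difference between responses. Of all genes it called 24.9% higher and 25.3% lower in WT, and 16.5% and 15.3% between backgrounds under the combination. The replicate numbers do not pair the libraries. Of 30 same-numbered pairs, 9 had correlated deviations above 0.1 (r from -0.36 to 0.55), and 4 libraries correlated best with their own number. Depth limits the interferon ligands and, among the members, Ifit3b, whose lowest count was 24.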

Other observations

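Of 6 markers listed for plasmacytoid dendritic cells, which are known as strong producers of interferon-alpha, 5 were tested. In WT 3 rose and 1 fell under the combination, beside 25.0% of all genes in each direction. Spib (1.74 ± 0.43, adjusted p = 0.00296), Ccr9 (1.57 ± 0.49, adjusted p = 0.0132) and Siglech (1.78 ± 0.68, adjusted p = 0.0356) rose, Tcf4, which other cells also express, fell (-0.53 ± 0.14, adjusted p = 0.00471), and Ly6d was not called (0.47 ± 0.61, adjusted p = 0.539), by edgeR. Tcf4 made up most of the summed level, which ran from 1032 to 1076 CPM in WT isotype and from 559.8 to 925 CPM in WT combination. Under the combination, Spib (-2.30 ± 0.46, adjusted p = 0.00582), Ccr9 (-1.64 ± 0.51, adjusted p = 0.0242) and Siglech (-2.48 ± 0.73, adjusted p = 0.0201) were lower in B-depleted than in WT tumours, and 0 of the 5 were called in B-depleted tumours. Without 1 library, the Ccr9 difference between backgrounds was called in 17 of 21 refits (adjusted p up to 0.0755), and that of Spib in 21 of 21. The B-cell markers moved the same way, with 5 of 5 higher in WT and 5 of 5 lower in B-depleted tumours under the combination. Whether the Spib, Ccr9 and Siglech transcripts came from plasmacytoid dendritic cells, B cells or other cells was not tested. Siglech was at 1.99, 2.26, 0.353, 0.802 and 1.32 CPM in WT isotype, 1.63, 6.41, 1.51, 5.1 and 8.01 CPM in WT combination and 1.16, 0.462, 0.298, 0.812 and 1.36 CPM in B-depleted combination. The highest 3 WT combination libraries exceeded all WT isotype and B-depleted libraries. Without 1 library its call in WT held in 15 of 21 refits (highest adjusted p 0.0991) and that between backgrounds in 19 of 21 (0.0607), and with the Y-linked covariate the WT estimate was -2.35 (adjusted p = 0.0713). The part of plasmacytoid dendritic cells in the members' differences was not tested.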
